A study of Homo sapiens with 15 samples.

Results

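Collagen genes were examined for open chromatin in RPTEC, an hTERT-immortalised line of epithelial cells from the human proximal tubule, by ATAC-seq, an assay in which the Tn5 transposase cuts DNA that is not packed away. Members were the GENCODE v44 protein-coding genes of chromosomes 1 to 22 whose names read COL, digits, A, digits, and 42 of 19111 such genes met the rule. They comprised 11 fibrillar, 6 basement membrane, 5 beaded filament, 10 fibril-associated, 3 short-chain network, 1 anchoring fibril and 4 transmembrane collagens, with 2 others. The design held 15 libraries in 5 groups of 3: WT cells with SETD2 intact; KO1 and KO2, clones in which CRISPR/Cas9 with a guide in exon 3 disrupted SETD2; and Rescue1 and Rescue2, clones of SETD2 knockout cells to which full-length tagged human SETD2 was returned by lentivirus under blasticidin selection. All cells were grown with G418 to keep hTERT. The clone names of both rescue lines begin with that of KO2, which may be their parent, although the sources used here do not say so, and rescue is therefore also compared with KO2 alone. Each knockout or rescue line was 1 clone, and its 3 libraries measured the spread within a clone, which may be technical, not the spread between clones.

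Collagens are triple helices of 3 chains that give the extracellular matrix its strength. Fibrillar collagens (types I, II, III, V and XI among them) form the cables of stroma and scar and are usually made by fibroblasts, while type IV collagen forms the sheet-like basement membrane on which kidney epithelium rests. The chains are hydroxylated, glycosylated and folded in the endoplasmic reticulum, trimmed by propeptidases outside the cell and cross-linked by lysyl oxidases. SETD2 is the enzyme that places H3K36me3, a histone mark of transcribed gene bodies. The comparisons asked where open chromatin at collagen genes differed without SETD2 and where it differed again once SETD2 was returned.

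The deposited files held peak positions and not reads, so the measure was the number of bases lying under called peaks in a window running from 10 kb before to 10 kb after each gene. A promoter was called occupied where a peak overlapped the 1 kb on either side of the gene start. A region was a merged interval held by at least 2 libraries. The lists held 197527 to 266011 peaks, and these lists carry no read depth, so a missing peak means only that none was called; the depth tabulated by the study was not used here. Bases under all peaks were 8.11% higher on average in KO than in WT and 4.32% higher in rescue than in KO. Promoters of 7 of 14 renal epithelial genes, PAX8, EPCAM, KRT8 and KRT18 among them, were occupied in all 15 libraries, and those of HNF4A, CUBN and AQP1 in none. Over the 14, promoters were occupied for 10 to 11 in WT, 8 to 10 in KO and 8 to 9 in rescue libraries. Their summed bases ran from 54626 to 62774 in WT, 52860 to 61796 in KO and 54748 to 63376 in rescue libraries. Of the 6 fibroblast markers, promoters were occupied for 4 in WT, 5 in KO and 3 to 4 in rescue libraries, and their summed bases ran from 10227 to 12186 in WT, 12672 to 14572 in KO and 11978 to 15228 in rescue libraries; only THY1 had no promoter peak in any library. Promoters of the endothelial genes VWF, PECAM1 and TEK and of the leukocyte genes PTPRC and CD3E held no peak in any library, while those of the endothelial genes KDR and CDH5 and of CD68, a macrophage gene, were occupied in all 15. The SETD2 window itself held 3880 to 6146 bases in all libraries, which does not check the knockout, since a frameshift leaves no mark on peak positions.

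Some regions in the collagen windows are shown as the DNA behind the results. The first 5 are all the regions that changed and changed back: held by all libraries of a condition and by none of the other, in KO against WT and again, the opposite way, in rescue against KO. COL18A1 encodes the basement membrane collagen from which endostatin is cut, and its region in an intron was in all WT and rescue libraries and in no KO library. The other 4, beside COL8A2, in COL12A1 and beyond the end of COL4A2, appeared in each of the 6 KO libraries but never in WT or rescue. The COL8A2 window also holds the start of ADPRS, but neither region there lay at a promoter. Sequences are the plus strand of hg38, up to 300 bases around the region centre, 5′ to 3′. Capitals mark, on either strand, the letters of 6 motifs that were searched: TGANTCA (AP-1), GGAATG (TEAD), TGTTTAC (forkhead), TAATTA (homeobox), GGGCGG (SP/KLF) and the palindromic HNF1 motif.
COL18A1 intron, chr21:45447820-45448119: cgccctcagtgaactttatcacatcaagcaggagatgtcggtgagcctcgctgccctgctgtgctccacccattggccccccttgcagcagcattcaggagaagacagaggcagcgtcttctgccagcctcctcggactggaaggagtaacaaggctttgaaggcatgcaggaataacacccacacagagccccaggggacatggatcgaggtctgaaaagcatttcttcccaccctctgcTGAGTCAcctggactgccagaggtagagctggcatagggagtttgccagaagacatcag
COL8A2 downstream, chr1:36093999-36094298: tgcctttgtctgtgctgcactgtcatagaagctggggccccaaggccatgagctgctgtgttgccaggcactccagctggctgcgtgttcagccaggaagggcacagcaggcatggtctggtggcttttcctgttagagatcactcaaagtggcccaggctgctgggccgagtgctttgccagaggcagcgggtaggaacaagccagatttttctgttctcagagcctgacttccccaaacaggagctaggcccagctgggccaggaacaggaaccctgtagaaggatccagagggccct
COL8A2 downstream, chr1:36094692-36094991: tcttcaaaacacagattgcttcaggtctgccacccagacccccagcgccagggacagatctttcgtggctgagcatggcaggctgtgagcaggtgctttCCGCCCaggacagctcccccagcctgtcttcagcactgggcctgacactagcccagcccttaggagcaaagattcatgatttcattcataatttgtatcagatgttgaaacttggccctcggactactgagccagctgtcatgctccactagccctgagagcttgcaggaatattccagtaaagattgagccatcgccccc
COL12A1, chr6:75126149-75126448: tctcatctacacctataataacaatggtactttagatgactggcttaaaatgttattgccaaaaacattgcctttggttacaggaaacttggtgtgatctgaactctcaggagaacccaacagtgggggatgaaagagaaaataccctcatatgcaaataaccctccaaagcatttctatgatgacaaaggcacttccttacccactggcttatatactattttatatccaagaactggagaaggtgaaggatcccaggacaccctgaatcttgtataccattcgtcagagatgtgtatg
COL4A2 downstream, chr13:110520912-110521211: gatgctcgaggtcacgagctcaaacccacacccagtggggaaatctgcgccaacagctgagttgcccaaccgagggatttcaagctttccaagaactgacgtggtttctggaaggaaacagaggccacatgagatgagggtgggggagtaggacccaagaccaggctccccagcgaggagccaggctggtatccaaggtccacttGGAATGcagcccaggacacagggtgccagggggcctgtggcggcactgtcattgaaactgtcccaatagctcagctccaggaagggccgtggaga

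Another 6 were chosen after their values were seen, from genes described below. The COL5A1 stretch ends at the base before the gene start and lay under a peak region in each of the 12 KO and rescue libraries but never in WT. The COL5A1 intron was held by KO2 and both rescue clones only. The COL6A6 sequence lies just inside the gene and was held by all KO, 4 of 6 rescue and no WT libraries. The COL25A1 intron was held by each KO and rescue library but never by WT. The COL19A1 intron was held by all KO and all Rescue2 libraries but no WT or Rescue1 library, and the COL4A3 intron by WT alone. That COL4A3 region was 85 bases wide, while the KO minus WT difference in mean bases over the COL4A3 window was -1136.8.
COL5A1 upstream, chr9:134641531-134641802: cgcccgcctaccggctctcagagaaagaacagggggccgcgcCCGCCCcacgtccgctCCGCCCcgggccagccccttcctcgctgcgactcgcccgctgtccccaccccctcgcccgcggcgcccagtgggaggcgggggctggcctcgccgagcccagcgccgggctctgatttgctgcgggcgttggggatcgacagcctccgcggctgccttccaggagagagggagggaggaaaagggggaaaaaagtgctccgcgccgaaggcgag
COL5A1 intron, chr9:134689510-134689809: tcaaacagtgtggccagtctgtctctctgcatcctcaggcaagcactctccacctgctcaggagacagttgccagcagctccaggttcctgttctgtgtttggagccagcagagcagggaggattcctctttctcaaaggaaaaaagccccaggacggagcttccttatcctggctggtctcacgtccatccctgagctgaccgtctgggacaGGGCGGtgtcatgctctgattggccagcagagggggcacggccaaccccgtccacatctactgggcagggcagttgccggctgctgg
COL6A6, chr3:130517632-130517931: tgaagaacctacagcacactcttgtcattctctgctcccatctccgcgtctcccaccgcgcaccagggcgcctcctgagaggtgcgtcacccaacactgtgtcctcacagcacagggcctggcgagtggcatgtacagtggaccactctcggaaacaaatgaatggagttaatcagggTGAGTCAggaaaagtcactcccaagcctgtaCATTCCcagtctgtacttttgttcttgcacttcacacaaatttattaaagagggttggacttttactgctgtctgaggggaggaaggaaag
COL25A1 intron, chr4:109294586-109294885: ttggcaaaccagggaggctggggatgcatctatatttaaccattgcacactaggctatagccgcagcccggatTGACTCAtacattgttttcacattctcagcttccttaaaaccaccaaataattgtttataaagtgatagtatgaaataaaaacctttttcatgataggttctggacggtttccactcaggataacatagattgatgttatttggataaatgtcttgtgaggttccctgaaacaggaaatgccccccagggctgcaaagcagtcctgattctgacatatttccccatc
COL19A1 intron, chr6:69994300-69994599: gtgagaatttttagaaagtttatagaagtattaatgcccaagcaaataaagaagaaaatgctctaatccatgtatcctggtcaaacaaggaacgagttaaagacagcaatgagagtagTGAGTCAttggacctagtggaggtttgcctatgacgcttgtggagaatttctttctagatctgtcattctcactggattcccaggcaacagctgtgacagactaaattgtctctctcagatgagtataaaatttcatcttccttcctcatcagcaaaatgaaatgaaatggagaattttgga
COL4A3 intron, chr2:227182801-227183100: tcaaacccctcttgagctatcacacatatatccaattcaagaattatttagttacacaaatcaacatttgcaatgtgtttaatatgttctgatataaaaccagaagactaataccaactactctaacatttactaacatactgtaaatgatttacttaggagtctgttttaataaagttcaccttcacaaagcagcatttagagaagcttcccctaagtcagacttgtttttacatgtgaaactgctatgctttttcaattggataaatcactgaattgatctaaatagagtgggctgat

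The AP-1 letters stood in 22 of the 47 windows of 300 bases around regions gained in KO (46.8%), in 33.3% of the 940 windows around all regions near collagen genes and in 31.7% of those around all 295008 regions of the genome. The TEAD letters stood in 34.0%, 23.3% and 20.9% of the same sets. Around the 321 collagen regions held by all 15 libraries, AP-1 letters stood in 37.4% of windows and TEAD letters in 24.0%. Forkhead letters were in 4.26% of windows around gained regions and homeobox letters in 2.13%, against 5.0% and 6.64% of all regions. SP/KLF letters were in 12.8% of windows around gained regions and 11.9% of all collagen windows, and the HNF1 letters were in no collagen window and in 0.0136% of all. Around the 13 regions lost in KO, AP-1 letters were found in 2 windows (15.4%) and TEAD letters in 5 (38.5%). In the printed windows the AP-1 letters occur in COL18A1, COL6A6, COL25A1 and COL19A1. The 7320 regions gained in KO over all gene windows were not searched as a set, so the shares around gained collagen regions were not set against theirs. A match of letters is not a bound site.

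KO cells differed from WT at 16 of the 42 collagen genes. By limma, with p-values adjusted over all 18448 genes tested, 12 rose (COL5A1, COL22A1, COL25A1, COL6A6, COL19A1, COL10A1, COL6A5, COL24A1, COL6A3, COL21A1, COL15A1 and COL1A1) and 4 fell (COL5A3, COL4A3, COL5A2 and COL4A4). Over all genes tested 15.3% were higher and 13.1% lower. The median log2 difference was 0.10 over the collagens and -0.01 over all genes. Scaling every library to the same total moved the median of all genes to -0.11, and on that scale all called members but COL1A1 kept their call and direction. Higher genes made up 53.9% of all calls before that scaling and 26.4% after it. In 13 members every KO library lay above every WT library and in 3 every KO library lay below, against 12.7% and 11.4% of all genes. Each clone alone gave similar counts against WT, with 10 higher and 4 lower in KO1 (12.5% and 11.7% of all genes) and 11 and 4 in KO2 (13.5% and 9.3%). The smallest p that the exact permutation test, 2-sided over 6 against 3 libraries, can give is 0.0238. After correction its smallest adjusted p was 0.0987, so the test gave adjusted p under 0.05 to 0 genes although 5825 had an unadjusted p under 0.05.

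**Figure D1:**
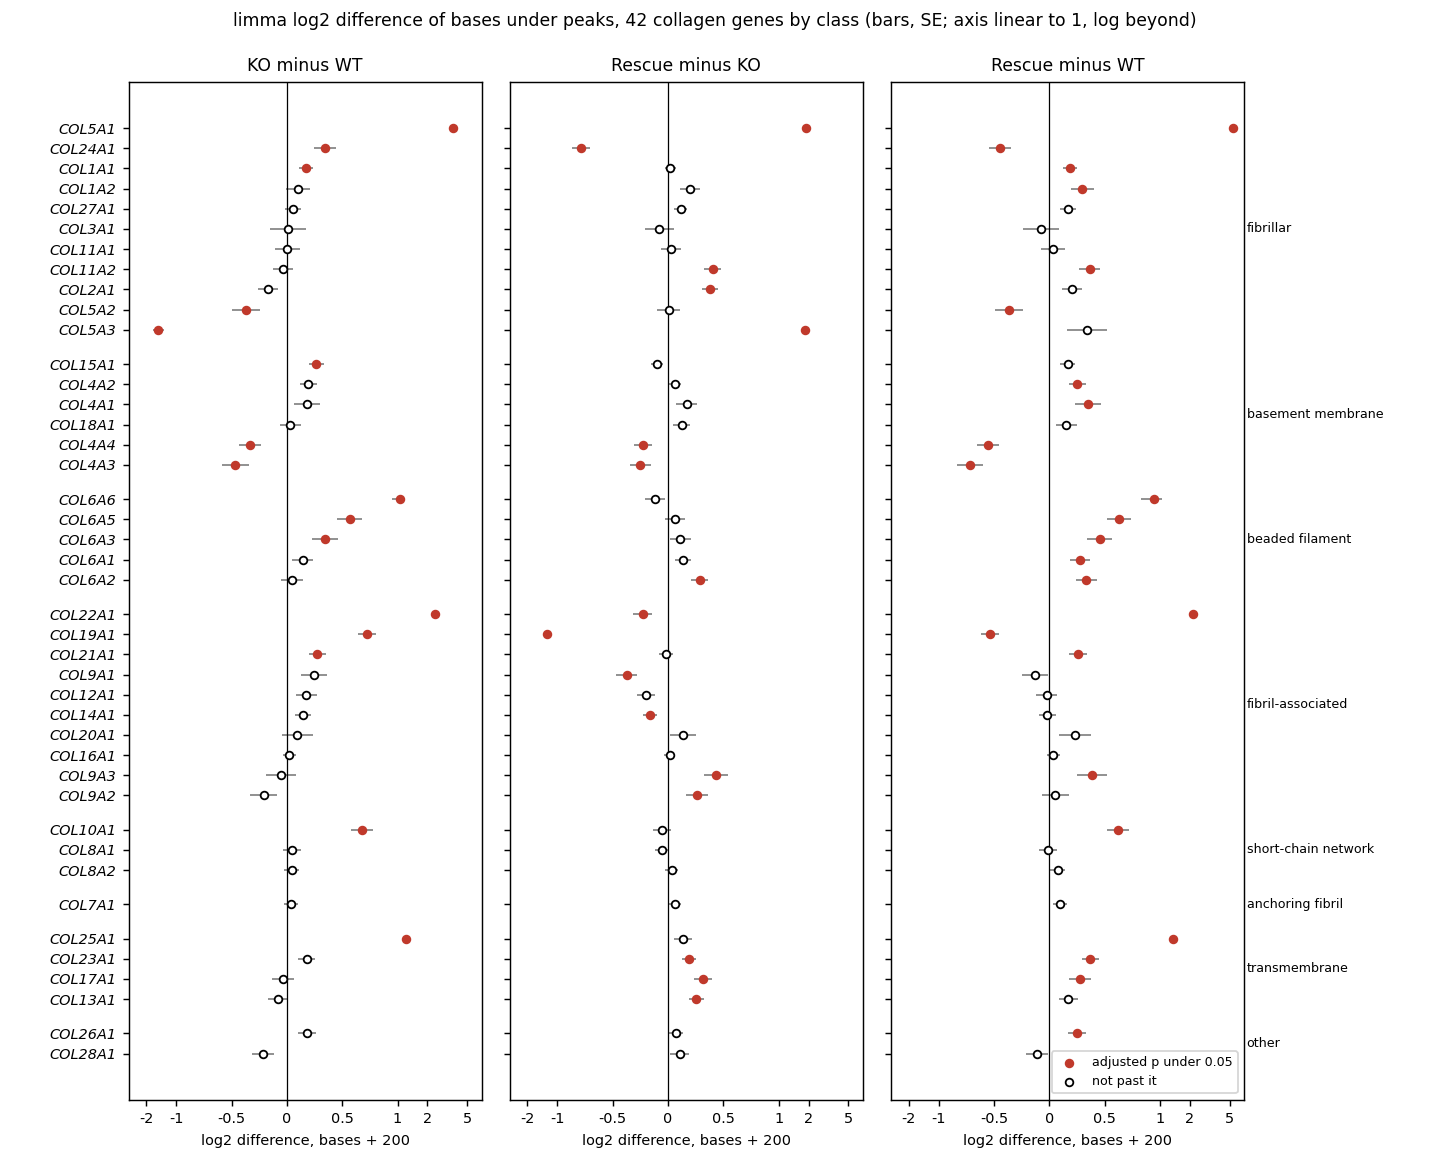
log2 differences of bases under peaks (with 200 bases added) for 42 collagen genes, ordered by class, in KO minus WT, rescue minus KO and rescue minus WT. Points are limma estimates, bars are standard errors, filled points have adjusted p under 0.05 and the axis is linear to 1 and logarithmic beyond. COL5A1, COL22A1 and COL25A1 lie farthest to the right in KO minus WT and stay to the right in rescue minus WT, while COL5A3 moves left and then right.

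Fibrillar collagens counted 3 that rose and 2 that fell of 11, where 15.3% and 13.1% of all genes did, and COL5A1 led them. COL5A1 encodes the main chain of type V collagen, which sits in the core of type I fibrils and sets their width. Its window on chromosome 9 (gene at chr9:134641803-134844843, plus strand) held 0 bases under peaks in each of the 3 WT libraries. KO1 libraries held 590, 514 and 501 bases and KO2 libraries 7668, 6887 and 7996. Rescue1 libraries held 8137, 7905 and 9426 bases and Rescue2 libraries 9288, 8777 and 8285. WT, KO1 and the other 3 clones thus formed 3 separate levels, and no library of a lower level reached the next. The fitted log2 difference of KO against WT was 3.57 ± 0.08 (adjusted p = 6.62e-18), but since WT stood at 0 its size depends on the 200 bases added and it is no fold. KO1 against KO2 gave -3.39 ± 0.09 (SE, n = 3 and 3, limma adjusted p = 6.12e-16). Both rescue clones were above the pooled KO libraries (log2 1.89 ± 0.06, adjusted p = 1.57e-14, n = 6 and 6), but against KO2 alone the difference was 0.20 ± 0.08 (adjusted p = 0.0700) and did not pass.

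The empty WT chromatin was wider than COL5A1. No peak of any WT library lay in the 860.23 kb from chr9:134552289 to chr9:135412518, which starts 89.5 kb before the gene and runs 567.7 kb past its end. KO1 libraries held 7 peaks each in this stretch, all of them upstream of the gene or in its window. KO2 libraries held 43 to 53 peaks, Rescue1 libraries 44 to 49 and Rescue2 libraries 41 to 53, of which 25 to 33 lay in the COL5A1 window. The gene body of RXRA, the retinoid X receptor gene 201 kb upstream, held similar bases in all groups, from 7360 ± 540 (SD, n = 3) in WT to 8495 ± 765 in Rescue2. FCN2 and FCN1, ficolin genes on the other side, held 0 bases in every library. OLFM1, farther out on that side and within the stretch, held 0 bases in WT and KO1 libraries. It held 0 to 76 bases in KO2, 172 to 352 in Rescue1 and 0 to 91 in Rescue2 libraries. Elsewhere on the autosomes there were 321 stretches of at least 500 kb without a WT peak, this one included; 23 of them held at least 10 regions shared by all KO2 and rescue libraries, and the COL5A1 stretch held the most, 30, followed by 24. Of 18448 genes, 92 (0.499%) had no base in any WT library and bases in all 6 KO libraries, and COL5A1 was the only collagen among them.

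**Figure D2:**
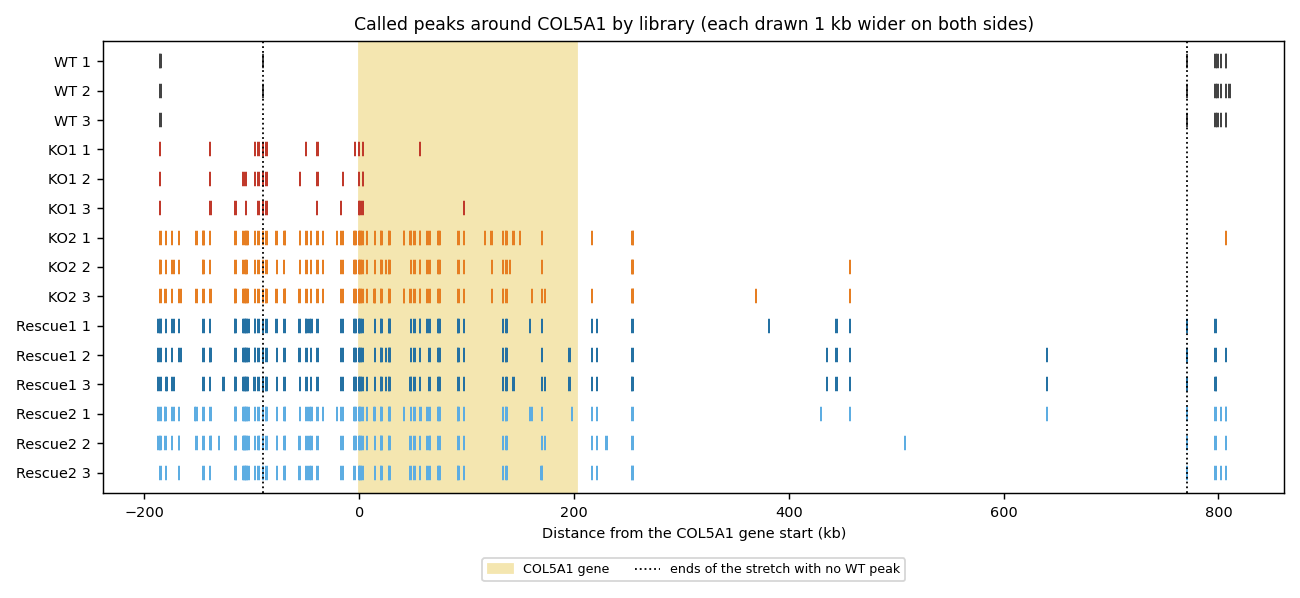
Called peaks around COL5A1 in each of the 15 libraries, by distance in kb from the gene start; each mark is a peak drawn 1 kb wider on both sides, the shaded band is the gene, and dotted lines bound the 860.23 kb without a WT peak. WT rows are empty between the lines, KO1 rows hold 7 peaks each, mostly near the gene start and upstream of it, and KO2 and rescue rows are filled across the gene.

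COL5A3, a minor chain of type V collagen, went the other way and came back. Its window held 623, 777 and 673 bases in WT libraries, 0, 80 and 0 in KO1 libraries, and 87, 400 and 264 in KO2 libraries. Rescue1 libraries held 787, 678 and 929 bases and Rescue2 libraries 1164, 1226 and 863. All KO libraries were thus below all WT and all rescue libraries. The fall in KO was -1.52 ± 0.18 on the log2 scale (adjusted p = 1.7e-06, exact permutation p = 0.0238, the smallest possible) and the rise in rescue 1.86 ± 0.15 (adjusted p = 6.17e-09, exact permutation p = 0.00216, again the smallest possible). Rescue against WT gave 0.34 ± 0.18 and did not pass (adjusted p = 0.185). The window also holds the start of RDH8.

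COL24A1, an embryonic fibrillar collagen of bone and cornea, rose in KO and was lower in rescue. WT libraries held 3443, 2774 and 3060 bases, KO1 libraries 3840, 3856 and 4035, and KO2 libraries 4253, 3577 and 4306. Rescue1 libraries held 1691, 1805 and 1955 bases and Rescue2 libraries 3258, 2775 and 2154. Every rescue library lay below every KO library (log2 -0.79 ± 0.08, adjusted p = 1.88e-07), and the rise in KO over WT was 0.35 ± 0.10 (adjusted p = 0.0112), lost without WT replicate 2 (0.28). Rescue against WT gave -0.44 ± 0.10 (adjusted p = 0.00214), with Rescue1 wholly below WT and Rescue2 overlapping it. Its promoter was occupied in 2 of 3 WT, all 6 KO and none of the 6 rescue libraries.

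The type I and III collagen genes are those of scar tissue. COL1A1 windows held 3300, 2962 and 2809 bases in WT, 3549, 3573 and 3543 in KO1, 3360, 3219 and 3301 in KO2, 3512, 3389 and 3846 in Rescue1, and 3332, 3432 and 3353 in Rescue2. The highest WT library lay within the KO2 range, and the difference of KO against WT (0.17 ± 0.06, adjusted p = 0.0497) passed in only 7 of 26 alternatives, whose adjusted p ran from 0.00486 to 0.335. Against WT, rescue was higher at COL1A1 (0.19 ± 0.06, adjusted p = 0.0312, every rescue library above every WT library) and at COL1A2 (0.30 ± 0.11, adjusted p = 0.0444, libraries overlapping). Promoters of COL1A1 and COL1A2 were occupied in all 15 libraries. COL1A2 held 969, 685 and 690 bases in WT, 784, 842 and 843 in KO1, 897, 819 and 874 in KO2, 1002, 854 and 826 in Rescue1 and 1207, 1221 and 929 in Rescue2, with overlapping groups and a KO difference of 0.10 ± 0.11 (adjusted p = 0.540). COL3A1 held 1033, 664 and 880 bases in WT, 614, 901 and 1134 in KO1, 802, 790 and 954 in KO2, 912, 540 and 760 in Rescue1 and 843, 1144 and 683 in Rescue2. Its groups overlapped throughout (KO against WT 0.01 ± 0.16, adjusted p = 0.981), and its promoter held no peak in any library. COL5A2, next to COL3A1, fell in KO by 0.37 ± 0.13 on the log2 scale (adjusted p = 0.0346), with overlapping libraries (2617 to 3117 in WT, 1657 to 2780 in KO). That call held in 17 of 26 alternatives and was lost without any 1 WT library, KO1 replicate 1, KO2 replicate 1 or KO2 replicate 2 (adjusted p up to 0.581 over the alternatives).

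COL11A2, a cartilage collagen chain, differed in rescue instead. WT libraries held 2103, 1744 and 1757 bases, KO1 2021, 1793 and 1853, KO2 1487, 1659 and 2108, Rescue1 2265, 2344 and 2538, and Rescue2 2798, 2427 and 2396. WT and KO overlapped (-0.04 ± 0.09, adjusted p = 0.816), and all rescue libraries lay above all others (rescue against KO 0.40 ± 0.08, adjusted p = 0.000326). The window also holds the starts of RXRB and SLC39A7. COL2A1, the main cartilage collagen, also rose from KO to rescue, by 0.38 ± 0.07 (adjusted p = 0.000411), from 1272 to 1544 bases in KO libraries to 1655 to 2166 in rescue libraries. The COL2A1 window also holds the start of TMEM106C.

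**Figure D3:**
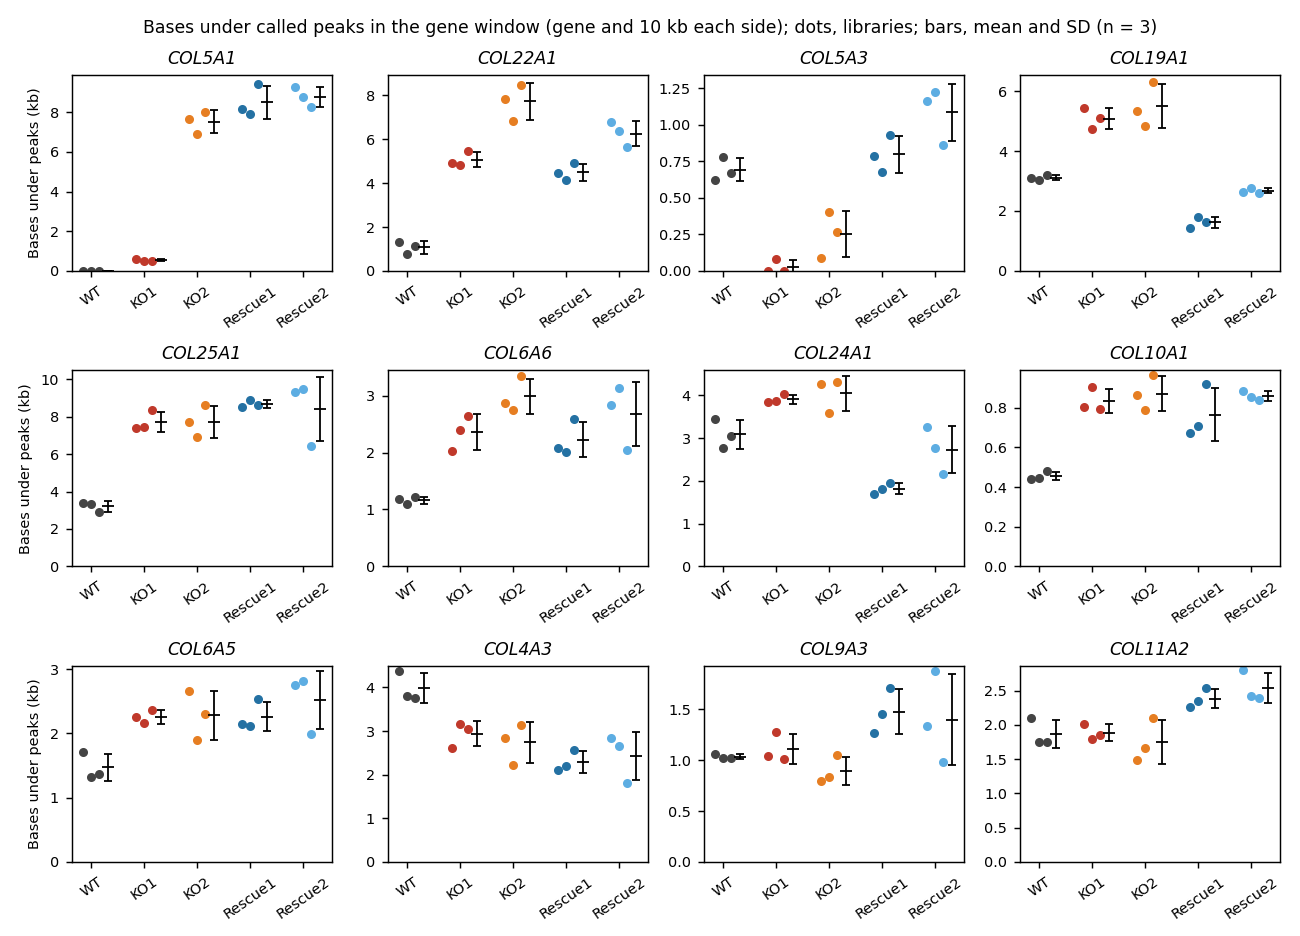
Bases under called peaks, in kb, in the windows of the 12 collagen genes with the largest called differences, by library. Dots are libraries, bars are the mean and SD of 3 libraries, and each vertical axis starts at 0. COL5A1 is at 0 in WT, COL22A1, COL25A1 and COL6A6 are low in WT only, COL5A3 is low in the KO clones only, and COL19A1 is high in the KO clones only.

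Of the 6 basement membrane genes 1 rose and 2 fell in KO, where 15.3% and 13.1% of all genes did. COL4A1 and COL4A2, which encode the ubiquitous chains and start head to head on chromosome 13, did not pass in KO against WT. COL4A1 held 4719, 3591 and 4375 bases in WT, 5092, 4448 and 5418 in KO1, 4593, 4416 and 4876 in KO2, 4869, 5103 and 6147 in Rescue1, and 6468, 6106 and 4138 in Rescue2. COL4A2 held 17185, 15560 and 14816 bases in WT, 17147, 17176 and 19313 in KO1, 18508, 17362 and 19508 in KO2, 17690, 18276 and 19742 in Rescue1, and 20710, 19487 and 17749 in Rescue2. The KO differences were 0.18 ± 0.11 (adjusted p = 0.263) and 0.20 ± 0.08 (adjusted p = 0.0624). All rescue libraries exceeded all WT libraries for COL4A2 (0.25 ± 0.08, adjusted p = 0.0179), while for COL4A1 the libraries overlapped (0.35 ± 0.11, adjusted p = 0.0292).

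COL4A3 and COL4A4, the chains of the mature glomerular basement membrane that are mutated in Alport syndrome, fell in KO. COL4A3 held 4373, 3796 and 3762 bases in WT, 2621, 3153 and 3047 in KO1, and 2851, 2219 and 3150 in KO2. Rescue1 held 2099, 2202 and 2576 and Rescue2 2831, 2664 and 1808. All WT libraries lay above all KO and rescue libraries. The fall was -0.46 ± 0.12 in KO against WT (adjusted p = 0.00518) and -0.72 ± 0.12 in rescue against WT (adjusted p = 0.000133). COL4A4 fell by 0.33 ± 0.10 in KO (adjusted p = 0.0165), a call lost without WT replicate 1, without WT replicate 3 and with KO1 alone (adjusted p up to 0.0907). The genes start side by side on opposite strands, so they share a promoter, and it was occupied in all 15 libraries. Mean bases under peaks at the COL4A3 promoter were 1449.7 ± 65.1 in WT, 1257.3 ± 13.3 in KO1, 1092.3 ± 260.6 in KO2, 842.7 ± 224.5 in Rescue1 and 632.7 ± 159.5 in Rescue2 (SD, n = 3 each). The further differences of rescue from KO, -0.25 ± 0.10 and -0.22 ± 0.08, had adjusted p of 0.0486 and 0.0383 and passed in only 10 and 13 of 28 alternatives.

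COL18A1, which holds endostatin and is overlapped by the gene SLC19A1, held 6319, 5185 and 4850 bases in WT, 5430, 5348 and 5593 in KO1, 5797, 5116 and 6038 in KO2, 5865, 6077 and 6954 in Rescue1, and 6191, 6572 and 4862 in Rescue2. The groups overlapped and neither comparison passed (KO against WT 0.03 ± 0.09, adjusted p = 0.842; rescue against KO 0.12 ± 0.08, adjusted p = 0.226), although the window contains the intron region printed above, present in WT and rescue and absent in KO. COL15A1, a related collagen of vascular and epithelial basement membranes, rose in KO by 0.27 ± 0.07 (adjusted p = 0.00529), from 6320 to 7302 bases in WT libraries to 7818 to 8909 in KO libraries. Its call was lost with stricter q values, with 150000 peaks per library and without WT replicate 3 (adjusted p up to 0.141).

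Summed over the 11 fibrillar genes, bases under peaks were 24.4 ± 2.18 kb (SD, n = 3) in WT libraries, 23.8 to 25.9 kb in KO1, 30.3 to 34.9 kb in KO2, 31.7 to 35.1 kb in Rescue1 and 32.1 to 37.6 kb in Rescue2. The KO mean exceeded the WT mean by 4.26 kb and the rescue mean exceeded the KO mean by 5.75 kb. Without COL5A1, these differences were 0.238 and 1.14 kb, and WT averaged 24.4 ± 2.18 (SD, n = 3), KO 24.6 ± 1.42 (n = 6) and rescue 25.7 ± 2.26 kb (n = 6). The fibrillar sums therefore differed beyond the spread of libraries through COL5A1. The 6 basement membrane genes summed to 39.7 ± 3.29 kb in WT, 42.3 ± 2.35 in KO and 42.8 ± 3.70 in rescue, with overlapping libraries. Their KO mean was 6.51% above WT, where the sum of all peaks was 8.11% above. All 42 genes together held 18.3% more in KO than in WT.

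**Figure D4:**
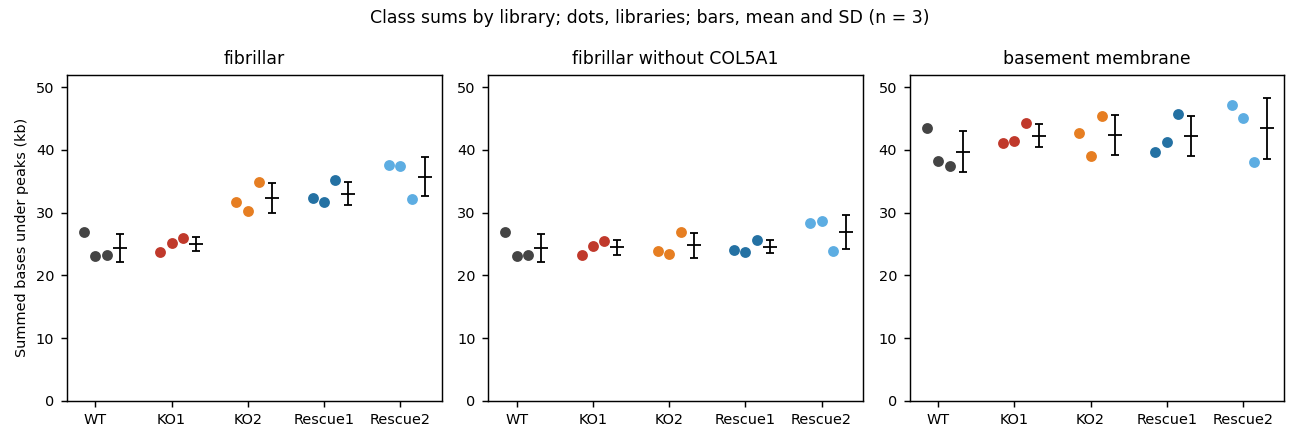
Bases under peaks in kb, summed over the 11 fibrillar genes, the same without COL5A1, and the 6 basement membrane genes, by library. Dots are libraries and bars the mean and SD of 3 libraries. KO2 and both rescue clones stand above WT and KO1 for the fibrillar sum, and this separation is absent without COL5A1.

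Beyond fibrils and basement membrane, the beaded filament chains of type VI collagen, which link cells to the matrix, were higher in KO or showed values that did not pass. COL6A6, COL6A5 and COL6A3 rose, 3 of 5, and none fell (15.3% and 13.1% of all genes). COL6A3 was called in 17 of 26 alternatives and in neither KO clone alone, and lost its call without WT replicate 2, WT replicate 3, KO1 replicate 3 or KO2 replicate 3 (adjusted p up to 0.662 over the alternatives). COL6A6 held 1179, 1092 and 1213 bases in WT, 2031, 2396 and 2649 in KO1, 2873, 2754 and 3336 in KO2, 2084, 2016 and 2586 in Rescue1 and 2833, 3132 and 2046 in Rescue2. Every KO and rescue library was above every WT library (KO 1.06 ± 0.11, adjusted p = 2.76e-07; rescue against WT 0.94 ± 0.11, adjusted p = 2.45e-06). COL6A5 held 1710, 1328 and 1370 bases in WT, 2251, 2154 and 2365 in KO1, 2658, 1897 and 2296 in KO2, 2142, 2113 and 2528 in Rescue1 and 2746, 2806 and 1995 in Rescue2 (KO 0.57 ± 0.11, adjusted p = 0.000481). Counted over the gene alone, without the 10 kb on each side, the COL6A5 difference was 0.06 and did not pass, so it lay in the flanks. In rescue against WT all 5 type VI genes rose, where 21.4% of all genes were higher and 4.28% lower.

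Fibril-associated collagens coat fibrils and bridge them to other molecules, and 3 of 10 rose in KO (COL22A1, COL19A1 and COL21A1) with none falling, where 15.3% and 13.1% of all genes were higher and lower. COL21A1 lost its call in 5 of 26 alternatives, among them without WT replicate 2 or WT replicate 3 (adjusted p up to 0.117). COL22A1, a collagen of tissue junctions on chromosome 8, held 1321, 765 and 1116 bases in WT, 4923, 4816 and 5458 in KO1, 7843, 6840 and 8492 in KO2, 4452, 4122 and 4913 in Rescue1, and 6767, 6365 and 5630 in Rescue2. Every KO and rescue library lay far above the WT range. The KO difference was 2.37 ± 0.11 (adjusted p = 8.55e-13), KO1 lay below KO2 (-0.59 ± 0.13, adjusted p = 0.00890) and Rescue1 below Rescue2 (-0.46 ± 0.13, adjusted p = 0.0465). Against KO2, rescue was lower (-0.52 ± 0.11, adjusted p = 0.00147), yet rescue remained above WT by 2.14 ± 0.11 (adjusted p = 8.44e-12). By clone, Rescue1 lay below KO2 (-0.75 ± 0.13, limma adjusted p = 0.000230). The Rescue2 difference from KO2 did not pass (-0.29 ± 0.13, limma adjusted p = 0.0973). Its promoter was occupied in all 15 libraries, and of 31 regions in the window 25 were in no WT library. Such regions were also found at members not called in KO against WT, for example 28 of 85 at COL4A2 and 25 of 71 at COL23A1. The share over all gene windows was not counted.

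COL19A1, a rare collagen of basement membrane zones, rose in KO and fell below WT in rescue. WT libraries held 3093, 3046 and 3196 bases, KO1 5420, 4735 and 5098, and KO2 5341, 4842 and 6308. Rescue1 libraries held 1430, 1811 and 1624 and Rescue2 2638, 2766 and 2609, all below WT. The differences were 0.72 ± 0.08 in KO against WT (adjusted p = 6.43e-07), -1.26 ± 0.07 in rescue against KO (adjusted p = 1.1e-11) and -0.54 ± 0.08 in rescue against WT (adjusted p = 4.72e-05). Rescue1 was below Rescue2 by 0.66 on the log2 scale (-0.66 ± 0.09, adjusted p = 0.000180). The COL19A1 window also holds the start of LMBRD1, which overlaps the gene. COL19A1 lies beside COL9A1, and 2 regions fall in both windows. COL9A1 also fell from KO to rescue (-0.37 ± 0.10, adjusted p = 0.00448). COL9A3, a partner chain of COL9A1 in type IX collagen of cartilage, rose from KO to rescue (0.44 ± 0.11, adjusted p = 0.00408) with overlapping libraries. It held 1061, 1020 and 1016 bases in WT, 1043, 1273 and 1009 in KO1, 796, 831 and 1049 in KO2, 1266, 1453 and 1709 in Rescue1 and 1335, 1872 and 982 in Rescue2. The gene TCFL5 overlaps COL9A3.

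COL25A1, a transmembrane collagen first found in amyloid plaques and needed for motor nerve contacts with muscle, held 3377, 3348 and 2888 bases in WT, 7399, 7424 and 8346 in KO1, 7706, 6897 and 8606 in KO2, 8500, 8896 and 8608 in Rescue1 and 9334, 9465 and 6436 in Rescue2. All 12 KO and rescue libraries stood far above WT, the KO clones overlapped, and rescue overlapped KO (0.13 ± 0.08, adjusted p = 0.215). The KO difference was 1.22 ± 0.10 (adjusted p = 7.86e-09). Of 54 regions in its window, 36 were in no WT library, again with no share over all gene windows. COL10A1, the collagen of growth plate cartilage, held 441, 446 and 482 bases in WT, 804, 903 and 792 in KO1, 863, 787 and 964 in KO2, 674, 707 and 918 in Rescue1 and 886, 855 and 837 in Rescue2 (KO 0.68 ± 0.10, adjusted p = 1.99e-05). It lies inside the gene NT5DC1, and without the flanks its difference was 0.23 and did not pass. The other transmembrane genes, COL13A1, COL17A1 and COL23A1, rose from KO to rescue by 0.26 ± 0.07, 0.31 ± 0.08 and 0.19 ± 0.06 on the log2 scale.

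**Figure D5:**
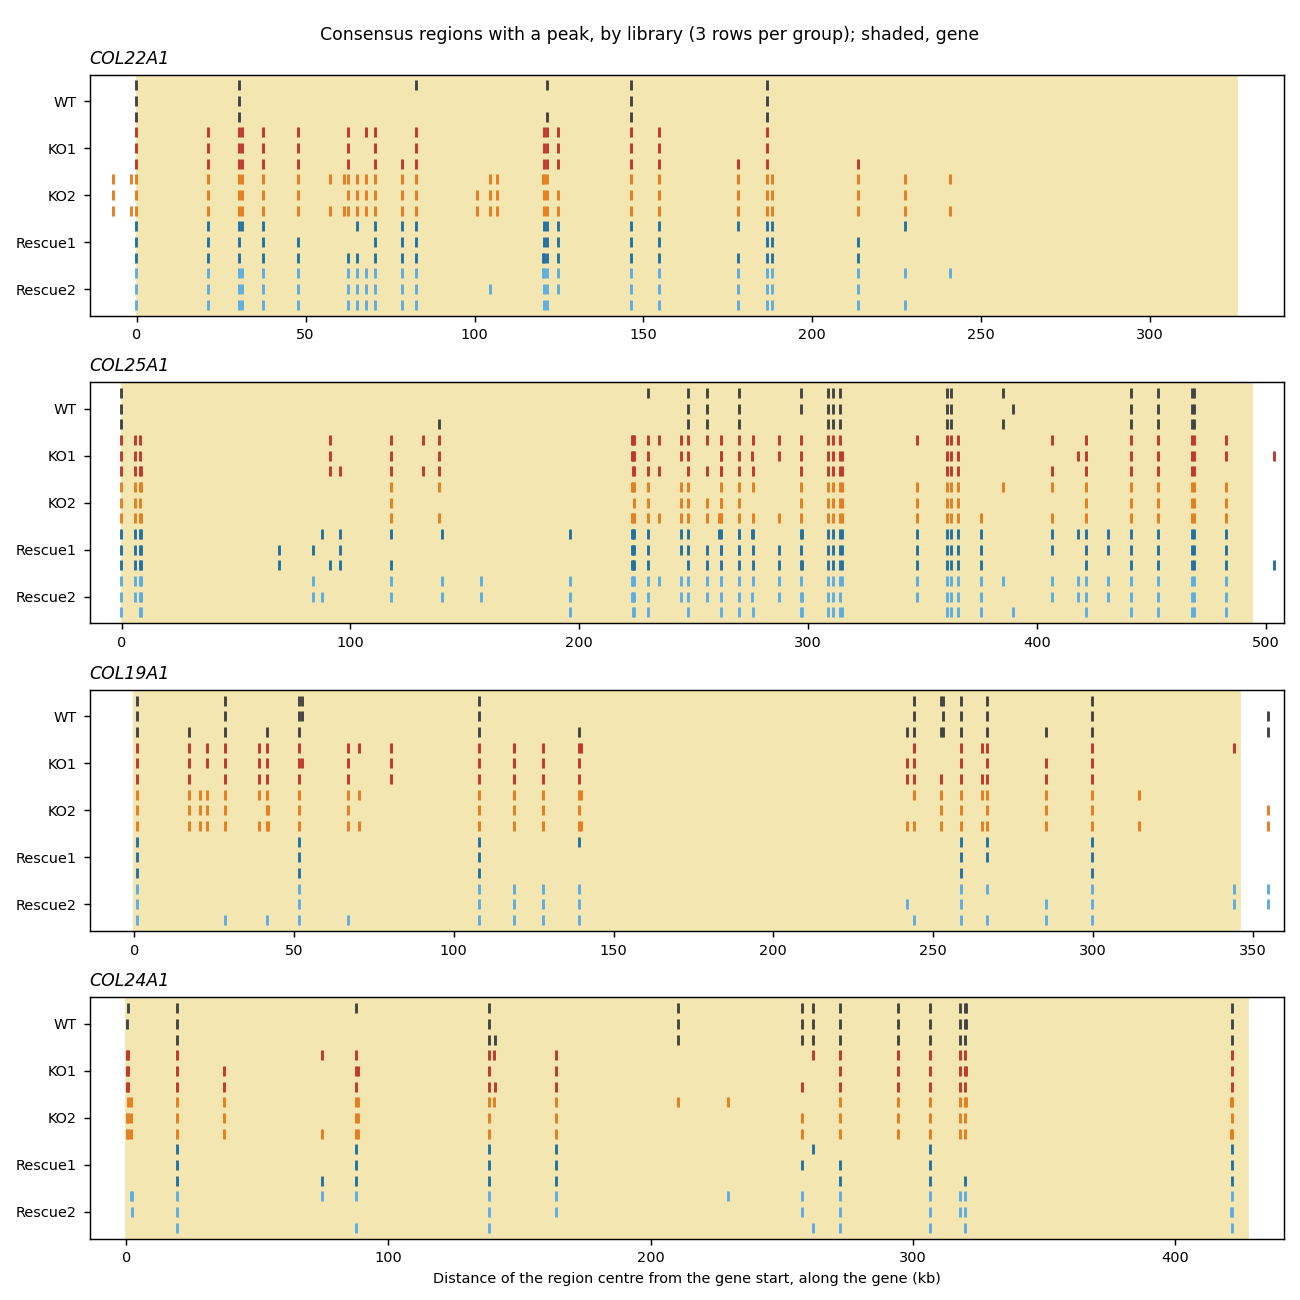
Regions with a peak along COL22A1, COL25A1, COL19A1 and COL24A1 in each of 15 libraries (3 rows per group), by distance in kb from the gene start to the region centre along the gene; shading is the gene. WT rows are sparse for COL22A1 and COL25A1, and Rescue1 rows are sparse for COL19A1. Regions in no WT library are 25 of 31 at COL22A1 and 36 of 54 at COL25A1, with no share over all gene windows counted.

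In rescue against KO, 10 of 42 collagens rose and 7 fell, where 27.6% of all genes were higher and 7.29% lower. The median log2 difference was 0.06 over collagens and 0.09 over all genes, and higher genes made up 79.1% of all calls, or 65.7% with libraries scaled to equal totals. These values share the KO libraries with those of KO against WT. The 10 were COL5A1, COL5A3, COL9A3, COL11A2, COL2A1, COL17A1, COL6A2, COL9A2, COL13A1 and COL23A1, and the 7 were COL19A1, COL24A1, COL9A1, COL4A3, COL22A1, COL4A4 and COL14A1. Of the 7, COL4A3, COL4A4, COL22A1 and COL14A1 had adjusted p between 0.0383 and 0.0486 and lost their call without at least 9 of the 15 libraries taken out in turn. Among the 10, COL9A2 had an adjusted p of 0.0485 and held in 8 of 28 alternatives. COL23A1 held in 20 of 28 and was lost without any of 6 single libraries, and COL17A1 held in 23. COL6A2 held in 25 and was lost without flanks, with Rescue1 alone and with KO2 alone (0.04 ± 0.10, limma adjusted p = 0.822). Its mean was 2144 bases in KO1, 3122 in KO2 and 3206 in rescue. The other 6 held in 26 to 28. In 4 members every rescue library lay above every KO library and in 2 every rescue library lay below, against 10.3% and 2.76% of all genes. Compared with KO2 alone, 5 rose and 4 fell (16.3% and 5.53% of all genes). Compared with WT, 19 rose and 5 fell (21.4% and 4.28%), and in 12 and 3 of the members rescue libraries lay wholly above or below WT (16.3% and 3.1%). KO1 lay below KO2 at COL5A1, COL22A1, COL5A3 and COL6A2 and above it at 0 members (2.34% and 0.645% of all genes), and Rescue1 lay below Rescue2 at COL19A1, COL22A1 and COL24A1 and above it at 0 (3.26% and 0.228%).

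At promoters, WT libraries had 28, 27 and 26 of the 42 promoters occupied, KO libraries 28 to 30 and rescue libraries 28 to 30. Promoters of 20 genes (47.6%) were occupied in all 15 libraries and those of 5 genes in none, against 66.3% and 21.6% of all protein-coding genes. COL5A1 and COL6A6 were the only members with a promoter peak in all KO and no WT libraries (0.565% of all genes), and 0 went the other way (0.633%). At the COL5A1 promoter, shown above, KO1 libraries held 230 to 282 bases under peaks, KO2 libraries 447 to 513 and rescue libraries 439 to 566. COL24A1 alone lost its promoter peak in rescue (0.204%), and 0 members gained one (0.173%). Against WT, rescue gained the COL5A1 promoter (0.528%) and lost 0 (0.602%).

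The 42 windows held 940 regions. Of these, 47 (5.0%) were gained in KO, present in each of the 6 KO libraries but never in WT, and 13 (1.38%) were lost, against 3.99% and 2.48% of the 183638 regions in all gene windows. COL22A1 held 8 of the gained regions, COL25A1 7 and COL4A2 6. Gained regions lay mostly within genes (39 of 47), as did all 940 (81.8%), and 2 lay at promoters. In the rescue clones, 26 of the 47 (55.3%) were still in all 6 libraries and 4 were in none; over all gene windows the first share was 47.2%. Of the 13 lost regions, 7 were in no rescue library and 1, in COL18A1, was back in all 6; over all gene windows 40.2% of the 4548 lost regions were in no rescue library and 643 were back in all 6. Rescue against KO gained 3 regions (1.0% of all regions) and lost 8 (0.909%). KO2 alone gained 123 of 940 (13.1%) against WT and KO1 alone 64 (6.81%), where 7.19% and 5.8% of all regions were gained. Lost regions were 24 in KO2 (3.23% of all regions) and 33 in KO1 (4.79%). Rescue against WT gained 68 of 940 regions (7.23%) and lost 16 (1.7%), where 4.21% and 1.95% of all regions were gained and lost. A pattern of presence in KO2 and both rescue clones but no WT or KO1 library was found in 20 regions (2.13%, against 0.315% of all), and 14 of them lay in the COL5A1 window. Without that window, KO2 gained 99 of 906 regions (10.9%) against WT and rescue gained 47 (5.19%).

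Genes that process collagen, a list of 32 written for this work, were all tested. In KO against WT, 9 rose and 6 fell (15.3% and 13.1% of all genes), and in rescue against KO 7 rose and 1 fell (27.6% and 7.29% of all genes). ADAMTS2, the propeptidase that removes the amino ends of procollagens I to III and whose loss causes a fragile-skin syndrome, held 0 bases in all 3 WT libraries. KO1 libraries held 2100 to 2379 bases at ADAMTS2, KO2 libraries 3337 to 4369, Rescue1 libraries 1696 to 1982 and Rescue2 libraries 2010 to 2391. It fell from KO to rescue (-0.50 ± 0.07, adjusted p = 1.95e-05) but all rescue libraries stayed above 0. TLL1, a protease of the family that trims the carboxyl ends, fell in KO from 4415 to 5073 bases in WT libraries to 1615 to 2572 (-1.08 ± 0.11, adjusted p = 1.32e-07) and rose again to 3321 to 4610 in rescue (0.79 ± 0.09, adjusted p = 6.17e-07). P3H3, a prolyl hydroxylase family member, followed the same course (-0.62 ± 0.10 and 0.51 ± 0.08, adjusted p = 4.38e-05 and 3.52e-05). Genes that rose in KO included the lysyl hydroxylase PLOD1 (0.46 ± 0.09, adjusted p = 0.000413), the collagen galactosyltransferase COLGALT2 (0.38 ± 0.07, adjusted p = 0.000496) and the lysyl oxidase LOXL2 (0.39 ± 0.07, adjusted p = 0.000207). Those that fell included the prolyl hydroxylase subunit P4HA1 (-0.31 ± 0.09, adjusted p = 0.0146) and the collagen receptor DDR1 (-0.28 ± 0.08, adjusted p = 0.0165). From KO to rescue, DDR1 rose (0.26 ± 0.07, adjusted p = 0.00675), and the P4HA1 difference was 0.19 ± 0.08 (adjusted p = 0.0535).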

How the data were processed

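ATAC-seq libraries of 15 RPTEC samples (3 per group, grouped by the labels) were analysed from peak lists. Per the labels and the submitters' processing notes, the authors aligned reads to hg38 with BWA (0.7.17) and called peaks in each library with MACS2 (2.2.7.1); DiffBind (2.14.0) is also named. The deposited lists give positions, a signal of fold enrichment, and −log10 p and q values; coordinates were the measure, and −log10 q served in an alternative.

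Bases under merged peaks were counted with Python (3.11.15) in GENCODE v44 gene windows, log2(bases + 200) was fitted with limma (3.58.1, R 4.3.3) over all 15 libraries for genes with a base in at least 3, and p-values were Benjamini-Hochberg adjusted over 18448 genes, with 0.05 as the threshold. Exact permutation tests over libraries were 2-sided. Differences are on the log2(bases + 200) scale, which understates changes of low genes. On simulated data for KO against WT, 81% of genes changed by 0.5 and 98% changed by 1.0 (log2) were recovered, over 18447 genes. Only 100 and 99 genes were changed there, and the spread was drawn for each gene apart, with no shift shared across a library. Real libraries differ in total bases and many more genes were called, so these rates may not hold for the calls here. Genes described in full were the called members with the largest difference in KO against WT or rescue against KO, at most 12, plus COL1A1, COL1A2, COL3A1, COL4A1, COL4A2 and COL18A1; other genes printed were picked once values were known. The members and lists were chosen with earlier results of these data known. Peak width depends on depth and on the caller, and neither reads nor depth were used here.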

Additional observations from a re-analysis of the deposited data

Results flagged for a closer look

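Among the 42 sets of libraries examined for a library standing apart, 2 had one, and chance gives about 1 in 20. COL25A1 held 6436 bases in Rescue2 replicate 3, where the other 5 rescue libraries held 8500 to 9465. COL1A1 held 3846 bases in Rescue1 replicate 3, where the others held 3332 to 3512.

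Among the genes described in full, the KO clones differed at COL5A1 (KO1 minus KO2, log2 -3.39 ± 0.09, limma adjusted p = 6.12e-16), COL5A3 (-0.94 ± 0.21, adjusted p = 0.0119) and COL22A1 (-0.59 ± 0.13, adjusted p = 0.00890). COL6A2, outside that set, also differed (-0.50 ± 0.11, limma adjusted p = 0.0125). The rescue clones differed at COL19A1 (Rescue1 minus Rescue2, -0.66 ± 0.09, limma adjusted p = 0.000180), COL24A1 (-0.52 ± 0.11, adjusted p = 0.0110) and COL22A1 (-0.46 ± 0.13, adjusted p = 0.0465). All 3 libraries of the lower clone lay below all 3 of the higher clone in each of these. Each line was 1 clone, so these are differences between clones of the same treatment.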

How the results depend on the processing

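Members called in KO against WT numbered 12 higher and 4 lower. With the 150000 strongest peaks per library 7 were higher, where 2218 of 18193 genes were. With libraries scaled to equal totals 8 were lower, where 7292 of 18448 genes were. The exact permutation test gave 0 and 0, and its smallest adjusted p over all genes was 0.0987. Most other counts in this section lack a share over all genes or regions under the same setting, so they were not set against one. Leaving out each library gave 8 to 15 higher and 2 to 5 lower (2 without WT replicate 1 or WT replicate 3). In rescue against KO, 10 were higher and 7 lower. Higher members were 5 with KO2 alone (2998 of 18448 genes), 5 with Rescue1 alone and 6 by permutation. Lower members were 12 when scaled (2637 of 18448 genes), 4 without flanks and 3 with no filter. They were 4 with KO1 alone, 4 with KO2 alone (1020 of 18448 genes), 2 with Rescue2 alone and 2 by permutation. The permutation test passed 4435 of 18448 genes in either direction. Leaving out each library gave 8 to 17 higher (17 without Rescue2 replicate 3) and 3 to 8 lower (3 or 4 without any of KO1 replicates 1 to 3, KO2 replicates 1 and 3, Rescue1 replicates 1 and 2 or Rescue2 replicate 3). In rescue against WT, 19 were higher and 5 lower. They were 10 higher with the strongest peaks, 11 lower when scaled, and 0 and 0 by permutation (4929 genes had an unadjusted p under 0.05); leaving out each library gave 9 to 24 and 4 to 5, with 9 higher without WT replicate 2, 10 without WT replicate 3, 12 without Rescue1 replicate 3 and 12 without Rescue2 replicate 2.

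Mean occupied promoters in WT, KO1, KO2, Rescue1 and Rescue2 were 22.7, 27.3, 26.7, 26.3 and 26.7 with −log10 q of at least 5, 22.7, 27.3, 24.7, 24.7 and 24.3 with the strongest peaks, 20, 23.3, 21.3, 20 and 21 within 500 bases, 18.7, 20, 19, 19.7 and 19.7 with only the upstream side, and 32, 34, 35, 35 and 34 with any transcript start; an overlap of 50 bases gave 27.3 in KO2 and 27.3 in Rescue1. Regions gained from KO to rescue were 6 at the stricter q, and 1 gained and 15 lost with the strongest peaks. Counting a region by majority of libraries gave 158 gained and 72 lost in KO and 56 gained and 64 lost in rescue. KO1 alone gave 33 lost in KO, and 41 gained and 20 lost in rescue. KO2 alone gave 123 gained and 24 lost in KO, and 8 gained and 20 lost in rescue. Rescue1 alone gave 10 gained and 23 lost, and Rescue2 alone 11 gained. Leaving out each library gave 47 to 64 gained and 13 to 22 lost in KO (22 without WT replicate 3), and 3 to 7 gained and 8 to 12 lost in rescue (5 gained without KO1 replicate 3, Rescue1 replicate 1 or Rescue2 replicate 3, and 7 without KO2 replicate 3). The fibrillar difference without COL5A1 was 0.238 kb in KO against WT and 1.14 kb in rescue against KO; the full sums ran from 3.002 to 5.52 and from 4.79 to 7.02 kb as each library was left out. The basement membrane difference was -0.612 kb in KO against WT when scaled, and ran from 1.45 to 4.48 kb and, in rescue against KO, from -0.348 to 1.48 kb. For genes described singly, COL22A1 in rescue against KO turned to 0.0625 with KO1 alone (limma adjusted p = 0.711), and 895 other values kept direction and side of the threshold, 58 lost the call and 18 gained it. The cause was not tested.

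Same-numbered libraries did not deviate together (r from -0.163 to 0.0464, 0 of 30 pairs over 0.1), so the number was not taken as a pairing. With the replicate block, 11 members were higher and 4 lower in KO against WT, 9 and 6 in rescue against KO, and 18 and 5 in rescue against WT. The sums and region counts without COL5A1 were chosen after seeing the data. The peak lists carry no read depth, so no limit on an absent peak was set.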
